A study of Mus musculus with 6 samples.

Results

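The nuclear genes for subunits of the mitochondrial respiratory chain were compared between mouse induced pluripotent stem cells (iPSCs, pluripotent cells made by reprogramming fibroblasts) kept in naive and in primed culture. Members were taken by gene symbol: Ndufa, Ndufb, Ndufc, Ndufs or Ndufv with a number (complex I), Sdha to Sdhd (complex II), Uqcr (complex III), Cox4 to Cox8 (complex IV) and Atp5 (complex V, the ATP synthase). This gave 81 genes of 19938 measured, with 35 in complex I, 4 in complex II, 8 in complex III, 17 in complex IV and 17 in complex V. Total RNA was hybridised to 6 Affymetrix mouse gene arrays, 3 from naive and 3 from primed cells. The naive medium held LIF (leukaemia inhibitory factor, which sustains naive self-renewal) at 1000 U/ml beside 15% FBS. Primed cells were grown in fibroblast-conditioned medium with basic FGF at 8 ng/ml, on feeder cells or matrigel. By the titles, naive lines came from embryonic fibroblasts and primed lines from dermal fibroblasts of adults, whereas the source field names embryonic fibroblasts throughout. Culture state and origin of the line cannot be told apart if the titles hold, and no label gives a strain or says how many lines were used. The arrays are called biological replicates without a statement of what was repeated, so p-values measure only the spread between these samples, which may be technical.

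The respiratory chain passes electrons from NADH (complex I) and succinate (complex II) through ubiquinone to complex III, on through cytochrome c to complex IV and then to oxygen, and complex V uses the proton gradient so formed to make ATP. Complexes I, III, IV and V also hold subunits encoded in mitochondrial DNA, while complex II is encoded in the nucleus alone. In mouse cells, naive pluripotent cells are known to respire as well as to use glycolysis, and primed cells of the epiblast stem cell type are known for strong reliance on glycolysis. Factors with a known part in the transcription of respiratory chain genes include NRF1, the ETS factor GABP, YY1 and the estrogen-related receptors.

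Promoters of 6 members are shown because they stand for the patterns described below: members that rose in primed cells (Cox6b2, Ndufa6, Ndufs6 and Atp5e), a member that fell (Ndufs3) and a member of complex II that did not pass (Sdha). The sequences are the 120 bases before the start of the gene, 5′ to 3′ on the strand of the gene, from RefSeq on build GRCm38.p6. Capitals mark a match on either strand to GCGC, any 2 bases and GCGC in a row (the NRF1 motif), CCGGAAG (ETS), AAGATGGCG (YY1), AAGGTCA (estrogen-related receptors) or ACGTG (the core of the hypoxia response element).
Cox6b2, chr7:4753095-4753214, minus strand: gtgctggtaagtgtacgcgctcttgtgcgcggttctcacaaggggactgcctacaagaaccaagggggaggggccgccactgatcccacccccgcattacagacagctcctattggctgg
Ndufa6, chr15:82354292-82354411, minus strand: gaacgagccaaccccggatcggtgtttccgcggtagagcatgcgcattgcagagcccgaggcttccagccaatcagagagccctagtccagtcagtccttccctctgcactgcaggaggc
Ndufs6, chr13:73328483-73328602, minus strand: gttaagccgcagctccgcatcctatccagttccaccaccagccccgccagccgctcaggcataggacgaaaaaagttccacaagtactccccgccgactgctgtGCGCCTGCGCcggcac
Atp5e, chr2:174464102-174464221, minus strand: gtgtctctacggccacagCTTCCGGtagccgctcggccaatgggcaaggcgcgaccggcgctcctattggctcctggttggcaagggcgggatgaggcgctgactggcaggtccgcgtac
Ndufs3, chr2:90904722-90904841, minus strand: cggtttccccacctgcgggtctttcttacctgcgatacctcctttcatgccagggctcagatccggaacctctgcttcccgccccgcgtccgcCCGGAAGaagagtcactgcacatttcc
Sdha, chr13:74350241-74350360, minus strand: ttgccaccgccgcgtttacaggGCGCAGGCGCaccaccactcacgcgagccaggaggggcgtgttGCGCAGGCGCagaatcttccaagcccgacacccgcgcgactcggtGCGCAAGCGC

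In these windows the NRF1 motif began 16 bases before the start in Ndufs6 and 98, 55 and 10 bases before it in Sdha. The ETS motif began 102 bases before the start in Atp5e and 27 bases before it in Ndufs3. Over the whole window of 300 bases (250 before and 50 after the start), 66 of the 81 members had a promoter in the table, and a gene was counted where any of its promoters held the motif. The NRF1 motif was found in 17 of the 66 members (25.8%), against 9.61% of 17492 protein-coding genes. It was found in 2 of 19 members that rose in primed cells (10.5%) and in 15 of 44 that did not pass (34.1%). The ETS motif was found in 25.8% of members against 12.9% of protein-coding genes, YY1 in 10.6% against 2.14%, and that of the estrogen-related receptors in 10.6% against 4.73%. The core hypoxia motif stood in 25.8% of members and 23.2% of protein-coding genes. Of members that rose and members that did not pass, ETS stood in 21.1% and 25%, and YY1 in 10.5% and 11.4%. For the estrogen-related receptors these shares were 5.26% and 11.4%, and for the hypoxia motif 21.1% and 25%. The difference between members that rose and members that did not pass was not tested for any motif. No motif contains another, though matches may share bases at their ends, and a match is a description of the sequence alone. The printed stretches of Ndufa6 and Cox6b2 hold none of the motifs, but the whole window of Ndufa6 holds an NRF1 motif after the start. Atp5e, Ndufs3, Ndufs6 and Sdha also hold further matches in the whole window that lie outside the printed bases.

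Values are log2 RMA values (RMA, robust multi-array average, is a background-corrected and normalized summary of the probes of a gene). Differences are primed minus naive on that scale, so that a negative difference is a higher value in naive cells. "Rose" and "fell" are used for primed relative to naive cells at an adjusted p under 0.05 (limma, Benjamini-Hochberg over all 19938 genes). Receptor genes of smell and of the vomeronasal organ (1190 genes) served as a measure of background, whose 95th percentile on an array lay between 6.96 and 7.03. Markers of pluripotent cells fell in 8 of 13 cases and rose in 2, with a median of -0.44. Pou5f1 (-1.06), Nanog (-0.61), Sox2 (-0.52) and Sall4 (-0.44) fell, with means of 11.43 or more in both groups. Of the genes that tell the states apart, Otx2, a primed marker, rose (0.92) and the naive factors Klf2 (-0.59) and Klf4 (-0.23, a call that held in 11 of 13 alternatives) fell, as the labels have it. Fgf5, also a primed marker, fell (-1.71) and Esrrb, a factor of naive self-renewal, rose (2.98), against the labels. Zfp42, a further naive marker, lay in background in both groups, so that the naive arrays lacked it too. Markers of fibroblasts fell in 10 of 20 cases and rose in 2, with a mean level over the list of 8.70 on each naive array and 8.56 to 8.59 on primed arrays. The largest change of that list was a rise, that of Dcn (2.89), while Acta2 (-1.23) and Col1a1 (-0.76) fell and Lum lay in background in both groups. The part of fibroblasts or feeder cells in the differences of respiratory chain genes was not tested. In bulk RNA, a change in the share of cells of a type and a change in RNA per cell cannot be told apart.

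Of the 81 respiratory chain genes, 22 rose in primed cells, 3 fell and 56 did not pass. Over all genes 21.8% rose and 22.7% fell, so that the share of members that rose (27.2%) was near the background and the share that fell (3.70%) was below it. All genes include 5365 that lay in background in both groups. Of genes above the 40th percentile of mean level, 31.7% rose and 34% fell, where 23 of 78 members rose and 4 fell. The median size of a difference, without its sign, was 0.10 over the members and 0.14 over all genes. A rise of at least 0.5 was called in 6 members (7.42% of all genes), while the 3 falls were smaller than 0.5 (6.45% of all genes fell by at least that). Cox6b2 and Ndufa4l2 were the members called with a change of 2-fold or more, where 3.55% of all genes were. The median difference was 0.07 over the members and 0.00 over all genes, and 53 members had a positive and 28 a negative difference. The naive and primed arrays did not overlap with primed higher in 34 members, against 25.9% of all genes, and with naive higher in 8, against 27% of all genes.

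**Figure D1:**
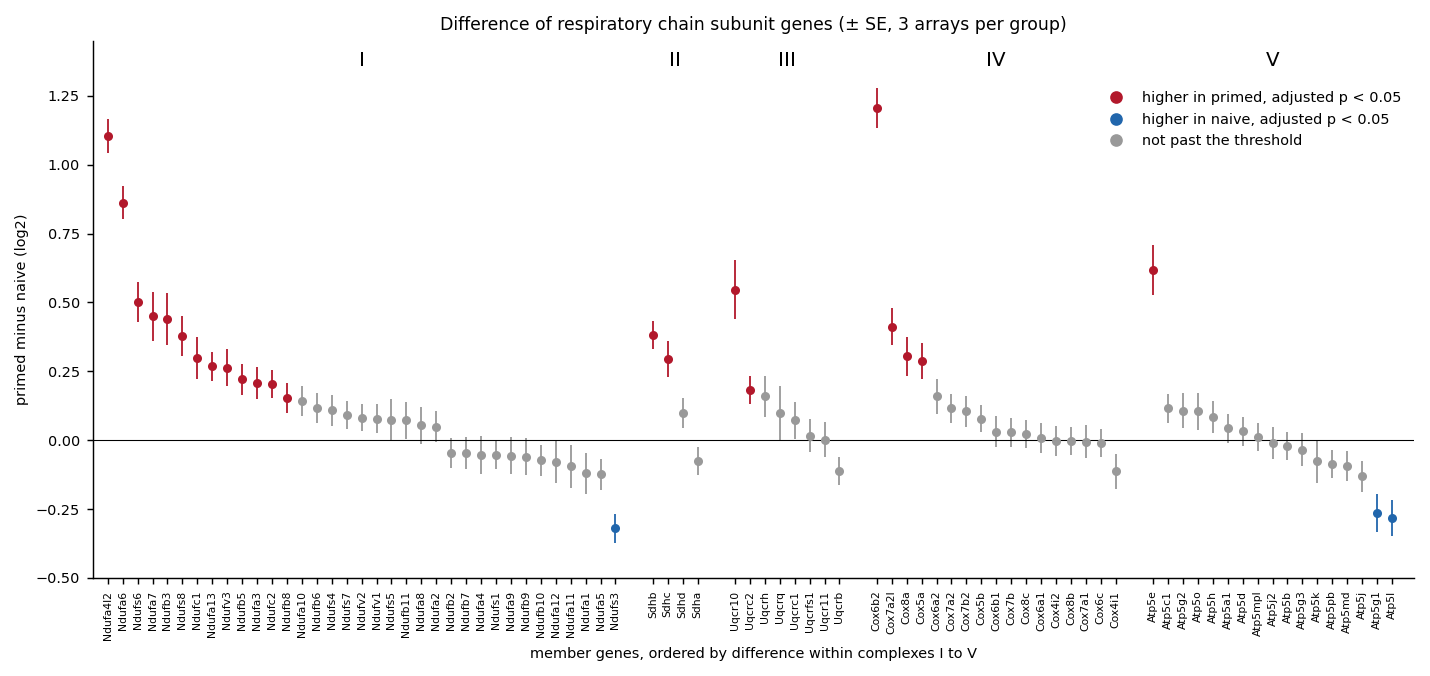
Primed minus naive difference on the log2 RMA scale (vertical axis) for each of the 81 members, ordered within complexes I to V (horizontal axis), with the standard error from limma (3 arrays per group). Red points rose, blue points fell and grey points did not pass; the largest rises are those of Cox6b2 (1.21) and Ndufa4l2 (1.10), and the 3 blue points are Ndufs3, Atp5g1 and Atp5l.

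The split between rises and falls depended on how the arrays were scaled. With the median of each array over the genes tested subtracted, 19 members rose (17.2% of all genes) and 12 fell (31.7%), so that rises made up 61.3% of the calls in place of 88.0%. With quantile normalization over all probe sets, 38 members rose (25.1% of all genes) and 3 fell (20.5%). The median of all genes moved to -0.07 and 0.03 under these scalings. Of the 25 members called here, 22 kept their call with array medians subtracted and 25 with quantile normalization, and none turned its direction. Ndufa3, Ndufb8 and Uqcrc2 no longer passed with array medians subtracted, and Sdha, Uqcrb, Cox4i1, Atp5j, Atp5pb, Atp5md, Ndufa1, Ndufa5 and Ndufb10 fell only there among these 3 scalings.

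Members varied together within the groups. Naive array 2 held the lowest naive value in 57 of 81 members (70.4%), against 35.3% of all genes. Primed array 1 held the highest primed value in 66 members (81.5%), against 46.1% of all genes. Both deviations widen the gap for genes that rose, and the counts were therefore repeated without these arrays, a choice made after seeing the data. Without them 18 members rose (19.6% of all genes) and 5 fell (21.1%), 21 of the 25 calls were kept, and the median difference over the members was 0.01. Leaving out naive replicate 2 alone gave a median of 0.03, and primed replicate 1 alone 0.04, in place of 0.07. Ndufa3, Ndufb3, Ndufb5 and Ndufb8 then missed the threshold, with adjusted p of 0.10, 0.056, 0.054 and 0.16 in limma.

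Complex I, the NADH dehydrogenase, held 13 of the 22 rises, and 1 of its 35 members fell. These are 37.1% and 2.86% of its members, against 21.8% and 22.7% of all genes. Of genes above the 40th percentile of mean level, 31.7% rose and 34% fell, where 14 members of complex I rose and 1 fell. Most members of complex I (29 of 35), among them Ndufa4 and Ndufa4l2 by symbol, lie outside the catalytic core. Of these 29 members 12 rose (41.4%) and the other 17 did not pass, with a median difference of 0.11. The core subunits carry the flavin, the iron-sulfur clusters and the ubiquinone site. Of the 6 measured, Ndufs8 rose and Ndufs3 fell (16.7% each), with a median of 0.08. The difference between core and other subunits was not tested.

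Ndufa4l2, a paralogue of Ndufa4 known as a gene induced by hypoxia, had the largest rise among members placed in complex I by their symbols. Its naive arrays read 8.52, 8.36 and 8.37 and its primed arrays 9.59, 9.51 and 9.46. All primed arrays lay above all naive arrays by far more than the spread within either group, and the difference was 1.10 (SE 0.06, limma adjusted p = 8.5e-08), or 2.15-fold. Ndufa4 itself, placed in complex I by its name and found in later work to belong to complex IV, had means of 11.01 ± 0.02 and 10.96 ± 0.14 (SD, n = 3) that overlapped (adjusted p = 0.59).

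Ndufa6, an accessory subunit of the LYR family on the matrix arm, read 10.09, 10.20 and 10.09 on naive arrays and 11.04, 11.03 and 10.90 on primed arrays. The groups were well apart, by 0.86 (SE 0.06, adjusted p = 4.3e-07). Ndufs6, a zinc-binding subunit next to the NADH-oxidising module, read 10.21, 10.25 and 10.05 in naive and 10.80, 10.61 and 10.61 in primed cells, without overlap (0.50, SE 0.07, adjusted p = 0.00014). Ndufa7, another accessory subunit of the matrix arm, rose by 0.45, and Ndufb3, of the membrane arm, by 0.44. Ndufb3 varied more among primed arrays (8.89 to 9.26) than most members, and its lowest primed array lay just above its highest naive array at 8.82. The core iron-sulfur subunit gene Ndufs8 rose by 0.38. The other rises, of Ndufc1, Ndufa13, Ndufv3, Ndufb5, Ndufa3, Ndufc2 and Ndufb8, lay between 0.15 and 0.30.

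Ndufs3, a core subunit near the ubiquinone site, went against the other called members of the complex. Its values were 11.62, 11.59 and 11.62 in naive and 11.37, 11.24 and 11.26 in primed cells, a tight pair of groups that did not overlap (-0.32, SE 0.05, adjusted p = 0.00047). Its other probe set gave -0.34. Among members that did not pass, Ndufs7, a further core subunit, differed by 0.09 with groups that did not overlap (adjusted p = 0.19), and Ndufb2 by -0.05 with overlap (adjusted p = 0.55). The call of Ndufb8 (0.15, adjusted p = 0.037) was the least firm. It ended in limma with the replicate block (adjusted p = 0.059) and without naive replicate 1 (0.083), 2 (0.086) or 3 (0.072) or primed replicate 1 (0.10) or 3 (0.093), and that of Ndufa3 (0.21) ended without naive replicate 2 (0.051).

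**Figure D2:**
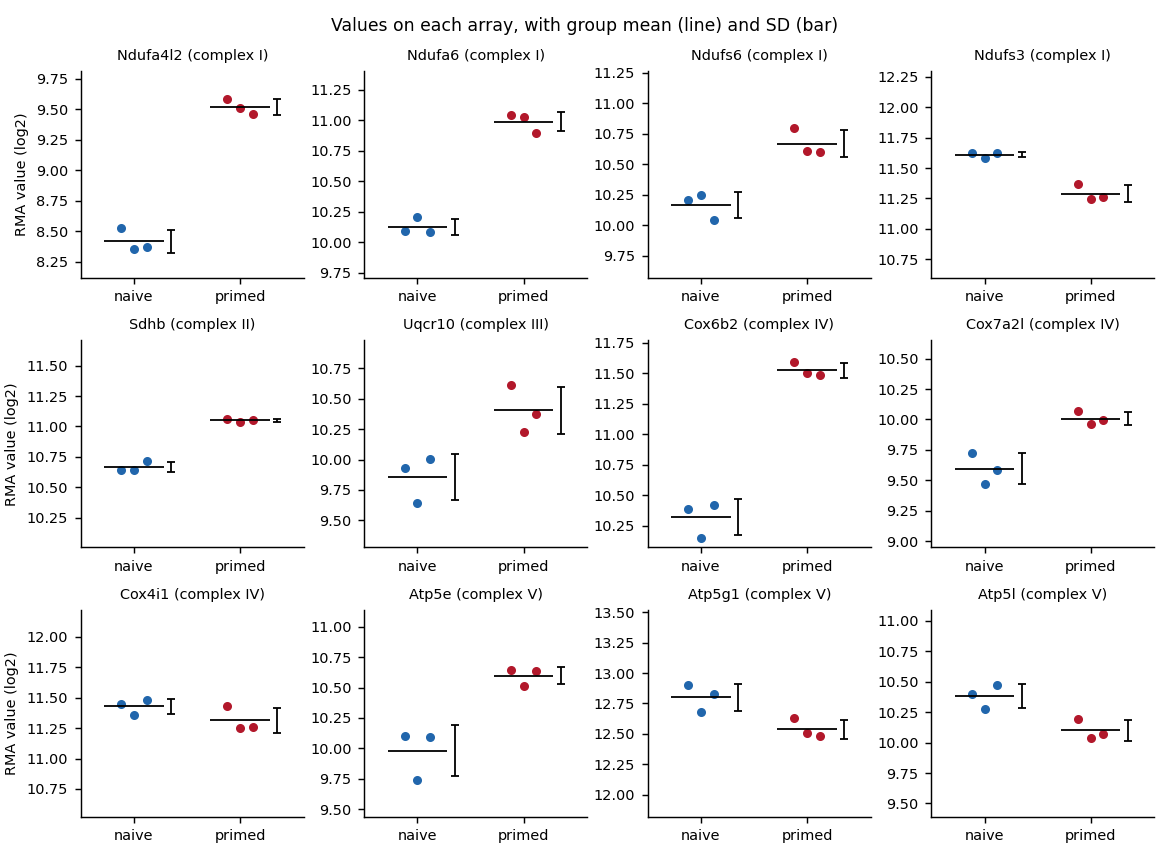
RMA values (log2, vertical axes of equal length) of 12 members on the 3 naive (blue) and 3 primed (red) arrays, with the group mean as a line and the SD as a bar; points stand in order of replicate number. Groups are apart in 11 of the panels and overlap in that of Cox4i1, where 1 primed array (11.43) lies among the naive values of 11.36 to 11.48.

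Of the 4 genes of complex II, the succinate dehydrogenase of the TCA cycle, 2 rose (50%, against 21.8% of all genes). Sdhb, its iron-sulfur subunit, read 10.64, 10.64 and 10.72 in naive and 11.06, 11.03 and 11.06 in primed cells. This is a difference of 0.38 (SE 0.05, adjusted p = 7.6e-05) between groups with little spread. Sdhc, a membrane anchor that binds haem, read 11.50, 11.35 and 11.44 against 11.83, 11.71 and 11.63, without overlap (0.30, SE 0.07, adjusted p = 0.0032). Sdhd, the other anchor, differed by 0.10 (adjusted p = 0.17), and Sdha, the flavoprotein that oxidises succinate, by -0.08 (adjusted p = 0.27). The arrays of both these genes did not overlap either, Sdha with naive higher. Sdhd rose with quantile normalization (0.15, adjusted p = 0.026) and Sdha fell with array medians subtracted (-0.15, adjusted p = 0.029).

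Of the 8 genes of complex III, which passes electrons from ubiquinol to cytochrome c, 2 rose (25%, near the 21.8% of all genes). Uqcr10, a small subunit, read 9.93, 9.64 and 10.00 in naive and 10.61, 10.23 and 10.38 in primed cells. Its spread was wide in both groups (SD 0.19 in each), yet all primed arrays were higher (0.55, SE 0.11, adjusted p = 0.0013). Uqcrc2, a core protein of the complex, read 12.74, 12.69 and 12.73 against 12.91, 12.91 and 12.88, a small difference between tight groups (0.18, SE 0.05, adjusted p = 0.010). It missed the threshold with array medians subtracted (0.11, adjusted p = 0.073). Uqcrb, which helps form the ubiquinone pocket, differed by -0.11 (adjusted p = 0.11), and Uqcrfs1, the Rieske iron-sulfur protein, by 0.02 (adjusted p = 0.87).

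In complex IV, cytochrome c oxidase, 4 of 17 genes rose (23.5%, near the 21.8% of all genes) and 13 did not pass. The median difference was 0.03 (0.02 without naive replicate 2 and up to 0.06 without another array). The largest rise of all members was that of Cox6b2, the isoform of subunit 6B known from testis. It read 10.39, 10.15 and 10.42 on naive and 11.59, 11.50 and 11.48 on primed arrays. Both groups lay well above background, and the difference was 1.21 (SE 0.07, adjusted p = 1.6e-07), or 2.31-fold. Cox6b1, the isoform found in most tissues, had overlapping values of 11.89 ± 0.06 and 11.92 ± 0.06 (SD, n = 3), a difference of 0.03 (adjusted p = 0.72).

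Cox7a2l, a homologue of subunit 7A that joins complexes III and IV in supercomplexes, read 9.73, 9.47 and 9.58 in naive and 10.07, 9.96 and 9.99 in primed cells. The groups were apart by 0.41 (SE 0.07, adjusted p = 0.00040), and by 0.32 in its other probe set. Cox8a, the usual isoform of subunit 8, rose by 0.31 (adjusted p = 0.0040) and Cox5a, a subunit on the matrix side, by 0.29 (adjusted p = 0.0040). The isoforms with a restricted pattern in adult tissues other than Cox6b2 showed no comparable difference. Cox4i2, known from lung and from hypoxia, differed by 0.00, the heart and muscle isoforms Cox6a2 and Cox7a1 by 0.16 (adjusted p = 0.061) and 0.00, and Cox8c by 0.02. Cox7b2 and Cox8b did not rise above background in naive or primed cells. Cox4i1, the main isoform of subunit 4, differed by -0.11 (adjusted p = 0.19) and fell without primed replicate 1 (-0.17, adjusted p = 0.039). Cox6a1 (0.01), Cox7a2 (0.12, adjusted p = 0.094), Cox7b (0.03) and Cox6c (-0.01) did not pass.

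Complex V, which makes ATP, had 1 rise and 2 falls among 17 genes, with a median difference of -0.01. These are 5.88% and 11.8% of its genes, against 21.8% and 22.7% of all genes. Atp5e, the epsilon subunit in the central stalk of the F1 part, read 10.10, 9.74 and 10.10 in naive and 10.65, 10.51 and 10.63 in primed cells. The groups did not overlap despite the low second naive array (0.62, SE 0.09, adjusted p = 0.00017). The genes of the other 4 F1 subunits did not pass, with Atp5c1 at 0.12 (adjusted p = 0.098), Atp5a1 at 0.04, Atp5d at 0.03 and Atp5b, the catalytic subunit, at -0.02.

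Atp5g1, Atp5g2 and Atp5g3 encode the same mature protein, the c subunit whose ring turns in the membrane, with different import sequences. Atp5g1 read 12.90, 12.68 and 12.83 in naive and 12.63, 12.51 and 12.48 in primed cells, just without overlap (-0.26, SE 0.07, adjusted p = 0.0073), and its other probe set gave -0.24. Atp5g2 differed by 0.11 (adjusted p = 0.20) and Atp5g3 by -0.03 (adjusted p = 0.70). Atp5l, subunit g of the membrane part, read 10.40, 10.28 and 10.47 against 10.20, 10.04 and 10.07, also without overlap (-0.28, SE 0.07, adjusted p = 0.0042). All 6 probe sets that carry the symbol Atp5l differed by -0.25 to -0.31, and some may read copies of the gene. Atp5k, another membrane subunit, differed by -0.08 (adjusted p = 0.49).

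**Figure D3:**
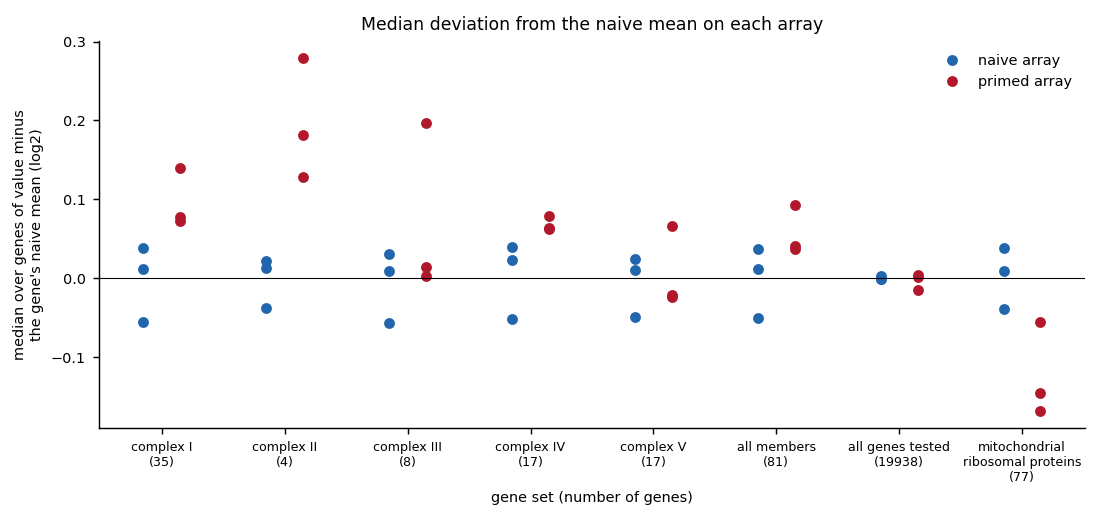
Median over the genes of a set of each array's value minus the gene's naive mean (log2, vertical axis), for complexes I to V, all 81 members, all 19938 genes and 77 mitochondrial ribosomal protein genes (horizontal axis); each point is an array, naive in blue and primed in red. Primed arrays lie above all naive arrays in complexes I, II and IV (0.07 to 0.14 in complex I, against naive arrays of -0.06 to 0.04), overlap with them in complexes III and V and, narrowly, over all 81 members (lowest primed array 0.0365, highest naive array 0.0372), and lie below them for mitochondrial ribosomal proteins.

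Other genes of the respiratory system were read from lists chosen with earlier results of these data known. Of 9 carriers and subunits that the symbol rule leaves out, 3 rose and 1 fell (33.3% and 11.1%, against 21.8% and 22.7% of all genes, as for each list below). Among them Etfb (0.52) and Etfdh (0.37), which feed electrons from fatty acid oxidation to ubiquinone, rose and Gpd2, the mitochondrial glycerol phosphate dehydrogenase, fell by 0.16 (adjusted p = 0.042), a call that held in 7 of 14 alternatives and reached an adjusted p of 0.16 without primed replicate 2. Cyc1 of complex III (0.00) and Ndufab1 of complex I (-0.03) did not pass. Of 13 subunits encoded in mitochondrial DNA 2 were measured, and neither passed: COX2 read 13.17 ± 0.04 and 13.17 ± 0.06, and ND3 read 12.51 ± 0.04 and 12.39 ± 0.09 (SD, n = 3; adjusted p of 0.99 and 0.14). Genes of ubiquinone synthesis or function rose in 5 of 12 cases (41.7%) and fell in 1 (8.33%), led by Coq10a (1.01), Coq8a (0.45) and Coq10b (-0.53). Genes of the TCA cycle and pyruvate dehydrogenase rose in 5 of 20 cases (25%), near the share of all genes, and fell in 2 (10%). The largest rises were those of Pdk4 (0.96) and Pdk2 (0.86), kinases that switch pyruvate dehydrogenase off. Pdk3 (0.08, adjusted p = 0.20) and Pdk1 (-0.08, adjusted p = 0.25), brighter kinases of the same kind, did not pass. The falls were those of Pdhx (-0.57) and Dld (-0.17), which encode parts of pyruvate dehydrogenase. Dlat, another part of it, rose (0.27, adjusted p = 0.0012), and Pdha1, of its catalytic E1 part, differed by 0.00 (adjusted p = 0.99). The call of Dld held in 8 of 14 alternatives and reached an adjusted p of 0.11 without primed replicate 2.

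Of 44 assembly factors, proteins that help build the complexes, 9 rose (20.5%) and 14 fell (31.8%), with a median of -0.03. Lyrm7 (0.57), which matures complex III, and Cox14 (0.45) rose, and Sdhaf2 (-0.67), which adds flavin to Sdha, and Uqcc3 (-0.48) fell. Mitochondrial ribosomal protein genes rose in 6 and fell in 33 of 77 cases, or 7.79% and 42.9% against 21.8% and 22.7% of all genes, with a median of -0.13. Of genes above the 40th percentile of mean level, 31.7% rose and 34% fell. Naive arrays had mean levels of 10.48 to 10.56 over this list, above the 10.33 to 10.43 of primed arrays. Mrps26 (-0.70) and Mrpl20 (-0.68) fell most, and Mrps15 (0.28) and Mrpl41 (0.25) rose most. Of 9 genes of nucleotide exchange and uncoupling, 0 passed in limma and 1 had an unadjusted p under 0.05.

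Among 24 regulators of mitochondrial gene expression 5 rose (20.8%) and 11 fell (45.8%). Esrrb, an estrogen-related receptor of pluripotent cells, rose from 8.25 ± 0.11 to 11.24 ± 0.02 (SD, n = 3). Ppargc1b, a coactivator of these receptors, rose by 1.01. Ppargc1a, its better known paralogue, passed (0.21, adjusted p = 0.013) but lay in background in both groups. Of the other estrogen-related receptors, Esrra did not pass (0.13, adjusted p = 0.19) and Esrrg rose by 0.36 from a naive mean of 7.08, near background. Nrf1 fell by 0.21 (adjusted p = 0.0072), and Tfam (-0.58) and Tfb2m (-0.56), which start transcription of mitochondrial DNA, also fell. Of the genes for GABP, Gabpa fell (-0.38, adjusted p = 8.6e-05) and Gabpb1 did not pass (0.13, adjusted p = 0.066). Lin28a, an RNA-binding protein of pluripotent cells, differed by 0.07 (adjusted p = 0.35), while Lin28b rose by 0.42 (adjusted p = 0.00048).

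**Figure D4:**
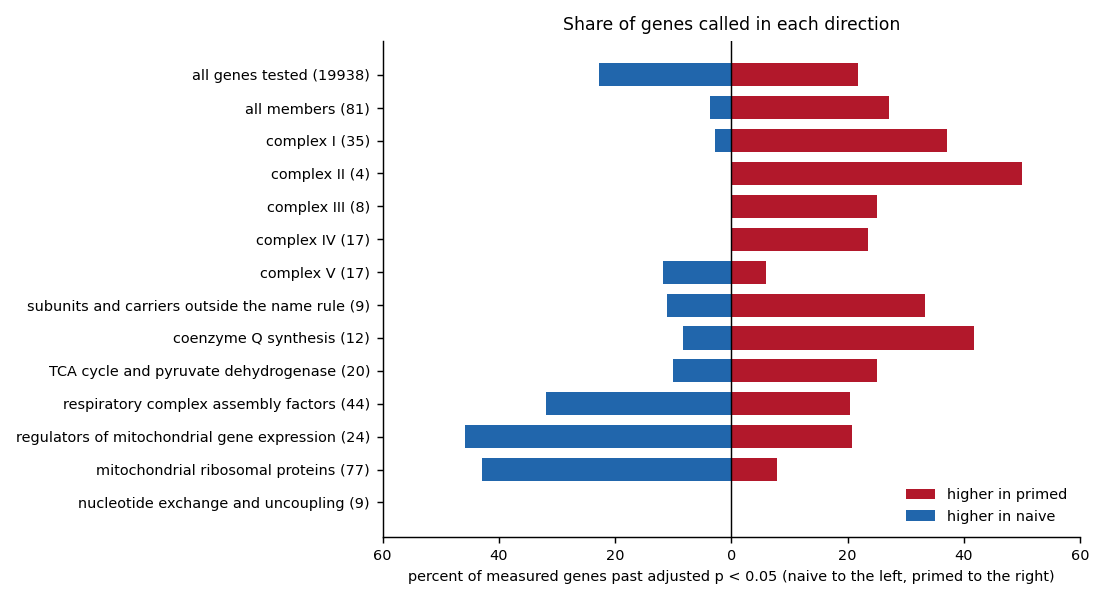
Percent of the measured genes of each list (number in brackets) that passed an adjusted p under 0.05 in limma, with genes higher in naive cells to the left and in primed cells to the right of 0. Members passed in 27.2% (primed) and 3.70% (naive) of cases, all genes in 21.8% and 22.7%, and mitochondrial ribosomal proteins in 7.79% and 42.9%.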

How the data were processed

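The deposited values are log2 expression values of 35556 probe sets on 6 arrays. RMA and Partek 6.6 are named per the submitters' processing notes. For the options and the genome build: not given in the sources used here. GEO's platform annotation gave 1 symbol to 21789 probe sets and several to 1621, and 12146 are unnamed here. Of the probe sets with 1 symbol, 21698 matched RefSeq (GRCm38.p6) by gene ID and took its symbol. A gene with several probe sets was read from its brightest by mean level, which left 19938 genes. The members had 105 probe sets; in 16 members with several, 0 had calls in opposite directions. Left out were 6 further probe sets, each shared by several symbols (among them all for Cox7c and Ndufb4). A probe set may also read near-identical pseudogenes of a member.

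limma 3.58.1 (R 4.3.3; lmFit, eBayes) gave two-sided tests without covariates, adjusted by Benjamini-Hochberg over all genes. On simulated arrays of this comparison (19938 genes), it recovered 52% of changes of 0.25 and 100% of those of 0.5, 1 and 2, and called 6 unchanged genes. The simulation changed 50 genes at each size, with noise drawn separately for each gene and array. In the data 44.5% of genes were called and members varied together within groups, so these rates cannot be carried over to the calls reported here. The number of arrays limits the precision.

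Members and lists were chosen with earlier results of these data known. Named members are the 4 largest calls without overlap in each direction per complex, complex II, the isoforms of complex IV, the c subunit genes, and the brightest and dimmest of each complex. In other lists the 2 largest calls in each direction are named, with Esrrb, Ppargc1a, Nrf1 and Lin28a. Other genes were named after their values were seen. Alternatives were quantile normalization, array medians subtracted, genes above the 40th percentile, probe sets averaged, a trend with intensity, weights per array, a replicate block, a threshold of 0.01 and each array left out. Replicate numbers did not pair the arrays (correlations of -0.11, 0.00 and -0.02 for equal numbers).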

Additional observations from a re-analysis of the deposited data

How the results depend on the processing

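Over all alternatives no called member turned its direction, and 20 of the 25 called members passed in every setting in which they were tested. Leaving out naive 2 and primed 1 was chosen after seeing the data. Among the counts of members that fell, array medians subtracted gave 12 over all complexes (4 in complex I, 1 in II, 1 in III, 1 in IV and 5 in V). Array weights gave 6 falls (2 in complex I, 1 in IV and 3 in V) and the intensity trend 5 (1 in I, 1 in III and 3 in V). Leaving out naive 2 and primed 1 gave 5 (1 in complex I, 1 in IV and 3 in V). Among rises, quantile normalization gave 38 (19 in complex I, 3 in II, 3 in III, 8 in IV and 5 in V). Array medians subtracted left 1 in complex III. The intensity trend gave 29 rises (17 in complex I, 2 in II, 3 in III, 5 in IV and 2 in V). Median differences with array medians subtracted were 0.0015 over the members, 0.0112 in complex I, 0.1273 in II, -0.0405 in IV (a turn from 0.03) and -0.0802 in V. With quantile normalization they were 0.1282, 0.1542, 0.2607, 0.0972 and 0.0466 (a turn from -0.01) in the same order. Without naive 2 and primed 1 they were 0.0116 over the members, 0.1216 in complex II and -0.0283 in III (a turn from 0.09). Leaving out each array in turn gave 20 to 22 rises and 3 to 4 falls of members, 0 to 1 falls in complex IV, medians of 0.0341 to 0.0891 over the members, 0.0707 to 0.1066 in complex I, 0.1552 to 0.2331 in II, 0.0095 (without primed replicate 1) to 0.1302 in III and 0.0166 to 0.0608 in IV, and medians of -0.0226 to 0.0113 in complex V, where the sign turned without naive replicate 1, primed replicate 2 or primed replicate 3. The causes were not tested. With the replicate block, 21 members rose and 3 fell, and all calls but that of Ndufb8 were kept; the shared numbers are no evidence of pairing. With the filter on dim genes 23 of 78 members rose and 4 fell, where 31.7% and 34% of all genes so filtered did, and with the mean over probe sets 22 rose and 3 fell.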
